A study of Mus musculus with 28 samples.

Results

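The mitochondrial ribosomal protein genes were taken as every gene symbol that begins with Mrpl or Mrps and a number and whose RPKM (reads per kilobase of transcript, scaled to library depth) reached 1 in at least 1 of 9 RNA-seq libraries. All 76 matching symbols met this, out of 23222 symbols in the files and 11047 that reached the same level. The member closest to the threshold was Mrps25, at 3.94 RPKM in its highest library, and 0 matching symbols fell below it. The cells were CD4+ T cells isolated with magnetic beads from spleens of wild type C57BL/6 mice, stimulated on plates for 3 days with anti-CD3 (2 µg/ml) and anti-CD28 (1 µg/ml), and rested overnight. They were then cultured with IL-2, with IL-21 or with no cytokine, with 1 library for each cytokine at 0.5, 2, 4 and 24 h and 1 library without cytokine. The age of the mice, any pooling of animals, the cytokine doses of these cultures and the time at which the culture without cytokine was collected are not stated. The series concerns STAT5 at the Il2ra locus and genes that respond to IL-2, and these libraries address which transcripts each cytokine changes and when. The other 19 samples of the series are chromatin libraries and were not analysed here.

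Mitochondria carry their own ribosome, which translates the few proteins encoded by mitochondrial DNA, all of them core subunits of the respiratory chain and ATP synthase. Its rRNAs come from mitochondrial DNA, while its proteins are encoded in the nucleus, made in the cytosol and imported. Some of these proteins have counterparts in the bacterial ribosome and others were added during the evolution of mitochondria. Activated T cells enlarge their mitochondria and their respiratory capacity. IL-2 signals mainly through STAT5 and supports growth and proliferation of activated T cells, whereas IL-21 signals mainly through STAT3. By the structures of mammalian mitochondrial ribosomes, 49 of the 76 genes encode proteins of the large subunit, among them Mrps18a and Mrps30 despite their names, and 26 encode proteins of the small subunit. The large subunit set held 30 proteins with a bacterial counterpart and 19 without, and the small subunit set 16 and 10. In this split Mrps18c was counted as the counterpart of bacterial S18, and its paralogues Mrps18a and Mrps18b among those without. Mrps36 was placed in neither, because its product is now known as a part of the 2-oxoglutarate dehydrogenase complex.

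All 76 genes were expressed in every library, each with at least 119 reads, from libraries of 29.5 to 44.3 M reads by the authors' totals. The 5 highest means over the 9 libraries were 77.4 RPKM for Mrpl30, 76.3 for Mrpl52, 72.9 for Mrps21, 71.2 for Mrpl33 and 53.2 for Mrps16. The 5 lowest were 2.62 RPKM for Mrps25, 3.59 for Mrpl17, 5.84 for Mrpl11, 6.02 for Mrpl41 and 6.61 for Mrpl35. Transcript levels of proteins that mostly occur once per ribosome thus lay far apart on this scale. Annotated transcripts ran from 407 to 6712 bases with a median of 1047. Across the 76 genes the Pearson r between log2 length and log2 RPKM without cytokine was -0.70, a description in which all values share 1 library. RPKM divides reads by length, so r is drawn towards negative values by construction. It is therefore not a result about the expression of long and short transcripts.

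With IL-2 the mitochondrial ribosomal protein genes were higher as a group at 4 and 24 h than without cytokine, most of them by a modest amount, while after 24 h of IL-21 they lay close to their level without cytokine. Their summed level was 1809, 1777, 2003 and 2319 RPKM after 0.5, 2, 4 and 24 h of IL-2 and 1586, 1659, 1917 and 1631 RPKM after the same times of IL-21, against 1751 RPKM without cytokine. The sum at 24 h was thus 1.32 times the one without cytokine for IL-2, and 0.931 times for IL-21. As a share of all summed RPKM it was 0.403, 0.448, 0.503 and 0.549% over the IL-2 times and 0.389, 0.428, 0.461 and 0.419% over the IL-21 times, against 0.399% without cytokine. The share was highest after 24 h of IL-2 and, for IL-21, after 4 h. Large and small subunit genes kept pace, with a ratio of their sums between 1.94 and 2.08 in all 9 libraries. In bulk RNA, less RNA per cell and fewer cells of a type cannot be told apart.

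Differences between libraries are given on the log2(RPKM + 1) scale, which understates changes of low genes. Calls of 2-fold and 1.5-fold use that scale, so a gene with a plain RPKM ratio just past 2-fold can miss the call. The library without cytokine is shared by all comparisons with it. For IL-2 against no cytokine, the median difference of the 76 genes was 0.05, 0.06, 0.27 and 0.44 at 0.5, 2, 4 and 24 h, while the median of all 11047 genes was 0.02, -0.04, 0.01 and 0.05. The number of the 76 genes higher by any amount was 55, 47, 58 and 66 at these times, beside 55.7%, 45.8%, 50.7% and 52.5% of all genes. The medians at 4 and 24 h stayed above 0 under TMM and upper quartile scaling. Upper quartile scaling moved the median of all genes at 24 h by -0.17 to -0.12, and gave the 76 genes a median of 0.25 with 56 of them higher (43.1% of all genes). Few of the genes reached 2-fold. The count higher was 0, 1, 2 and 6 at the 4 times, beside 0.407%, 3.15%, 5.38% and 9.58% of all genes, and the count lower was 0, 0, 0 and 1, beside 0.0362%, 1.31%, 3.3% and 6.64%. With TMM scaling 5 genes were 2-fold higher at 24 h (8.1% of all genes), and with upper quartile scaling 4 (6.24%), Mrps10, Mrps28, Mrpl12 and Mrpl20 under both. Large differences were thus no more frequent than among all genes. Without cytokine there was 1 library with no stated time, so IL-2 and the time in culture cannot be told apart here.

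**Figure D1:**
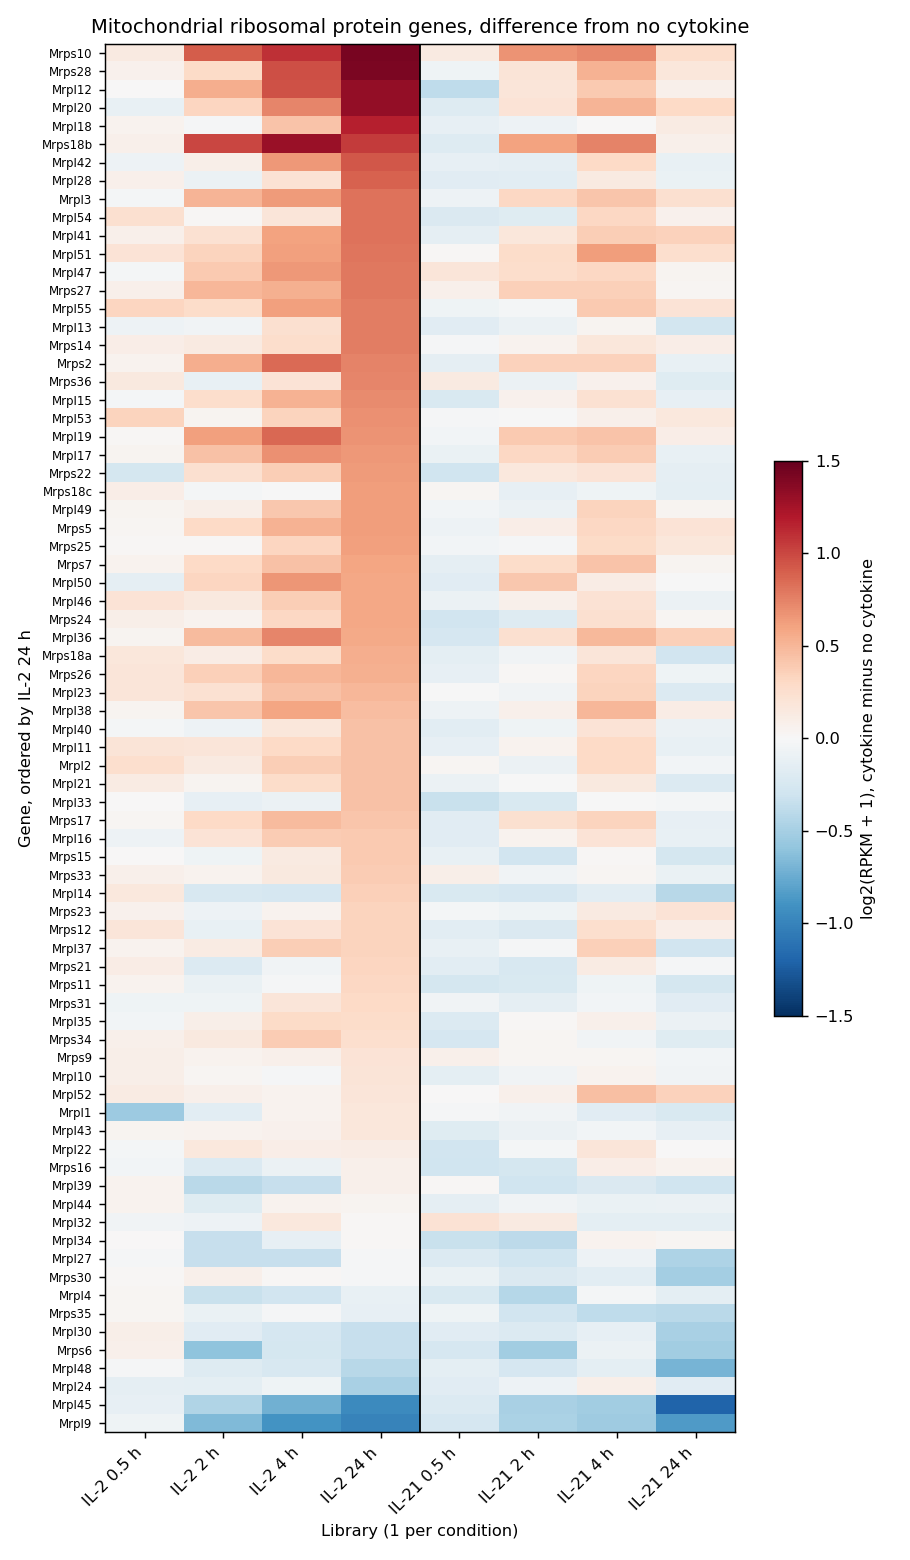
Difference of each of the 76 mitochondrial ribosomal protein genes from the library without cytokine, on the log2(RPKM + 1) scale, in the 4 IL-2 and 4 IL-21 libraries (columns, 1 library each), with genes ordered by the value after 24 h of IL-2. Red means higher than without cytokine: 66 rows are above 0 in the IL-2 24 h column and 29 in the IL-21 24 h column, and Mrpl45 and Mrpl9 at the bottom are below 0 in all 8.

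The 6 genes at or over 2-fold after 24 h of IL-2 were Mrps10, Mrps28, Mrpl12, Mrpl20, Mrpl18 and Mrps18b. Values over time are given in the order 0.5, 2, 4 and 24 h. Mrps10 (NM_001146211, plus strand of chromosome 17 in mm9), the counterpart of bacterial S10 in the head of the small subunit, stood at 7.54, 13.6, 15.7 and 19.9 RPKM in the IL-2 libraries and 7.53, 11.4, 11.8 and 8.36 RPKM in the IL-21 libraries, against 6.78 RPKM without cytokine. All 8 cytokine libraries were above the one without cytokine, and the IL-21 library was back to 8.36 RPKM at 24 h. The ratio of 24 h of IL-2 to no cytokine was 2.94 (exact 95% counting interval 2.53 to 3.43), a log2 difference of 1.43. Mrps28 (NM_025434, minus strand of chromosome 3), the counterpart of bacterial S1, was at 5.59, 6.68, 11.3 and 15.7 RPKM in the IL-2 libraries and 5.0, 6.16, 7.98 and 6.07 RPKM in the IL-21 libraries, against 5.28 RPKM without cytokine. It was high at 4 and 24 h of IL-2, with a ratio to no cytokine of 2.98 (2.43 to 3.67) at 24 h for IL-2 and 1.15 (0.909 to 1.46), an interval that spans equal levels, for IL-21. These intervals cover counting error only, since a condition has 1 library and reads are not independent molecules.

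The 3 largest single contributions to the summed increase came from genes of large subunit proteins with bacterial counterparts. Mrpl12 (NM_027204, plus strand of chromosome 11) forms the flexible stalk that recruits translation factors, and in human cells it has also been reported to bind the mitochondrial RNA polymerase. It was at 30.2, 44.3, 59.5 and 76.4 RPKM in the IL-2 libraries and 23.0, 34.4, 40.0 and 31.9 RPKM in the IL-21 libraries, against 30.1 RPKM without cytokine. The IL-2 library was above the IL-21 library at all 4 times. Mrpl20 (NM_025570, plus strand of chromosome 4), whose bacterial counterpart is needed to assemble the large subunit, was at 29.6, 40.5, 53.9 and 81.3 RPKM in the IL-2 libraries and 27.9, 37.1, 46.2 and 39.7 RPKM in the IL-21 libraries, against 32.1 RPKM without cytokine. Both cytokines gave higher values at 2 and 4 h, and at 24 h the IL-2 library alone was higher still. Mrpl18 (NM_026310, minus strand of chromosome 17), whose bacterial counterpart binds 5S rRNA, was at 40.7, 38.9, 53.4 and 89.8 RPKM in the IL-2 libraries and 36.1, 37.3, 39.5 and 43.0 RPKM in the IL-21 libraries, against 39.3 RPKM without cytokine. Mrpl18 was thus close to its level without cytokine at 2 h of IL-2, where Mrpl12 and Mrpl20 were already above theirs. At 24 h of IL-2 the ratios to no cytokine were 2.54 for Mrpl12 (2.35 to 2.74), 2.53 for Mrpl20 (2.32 to 2.77) and 2.28 for Mrpl18 (2.14 to 2.44). The summed level of the 76 genes was 568.5 RPKM higher with 24 h of IL-2 than without cytokine, and the increases of Mrpl18, Mrpl20, Mrpl12, Mrpl42 and Mrpl33 came to 35.4% of that.

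Mrps18b (NM_025878, minus strand of chromosome 17), one of 3 paralogues of bacterial S18, was highest at 4 h instead. Its level was 18.3, 35.7, 43.8 and 37.0 RPKM in the IL-2 libraries and 15, 26.9, 29.7 and 18.4 RPKM in the IL-21 libraries, against 17.3 RPKM without cytokine. On the log2(RPKM + 1) scale it was the only one of the 76 genes at 2-fold after 2 h of IL-2, and at 4 h Mrps10 reached 2-fold too. As plain RPKM, Mrps10 was already past 2-fold at 2 h of IL-2 (13.6 against 6.78 RPKM). Mrps28 was past it at 4 h (11.3 against 5.28 RPKM). The ratios to no cytokine at 4 h were 2.53 for IL-2 (2.31 to 2.77) and 1.72 for IL-21 (1.56 to 1.89). The other paralogues were flatter. Mrps18c was at 36.3, 33.0, 33.8 and 52.7 RPKM in the IL-2 libraries and 34.4, 30.9, 32.4 and 30.4 RPKM in the IL-21 libraries, against 33.8 RPKM without cytokine. Mrps18a, which sits in the large subunit, was at 19.9, 19.0, 21.39 and 26.1 RPKM in the IL-2 libraries and 15.8, 16.9, 20.0 and 14.3 RPKM in the IL-21 libraries, against 17.6 RPKM without cytokine. Of the 9 libraries, the one at 24 h of IL-2 was the highest for 49 genes (30.3% of all genes), and the one at 4 h of IL-2 for 11 (11% of all genes), among them Mrps18b, Mrps2, Mrpl17, Mrpl35 and Mrpl36. In 22 genes each later IL-2 library was above the one before it (15.9% of all genes).

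**Figure D2:**
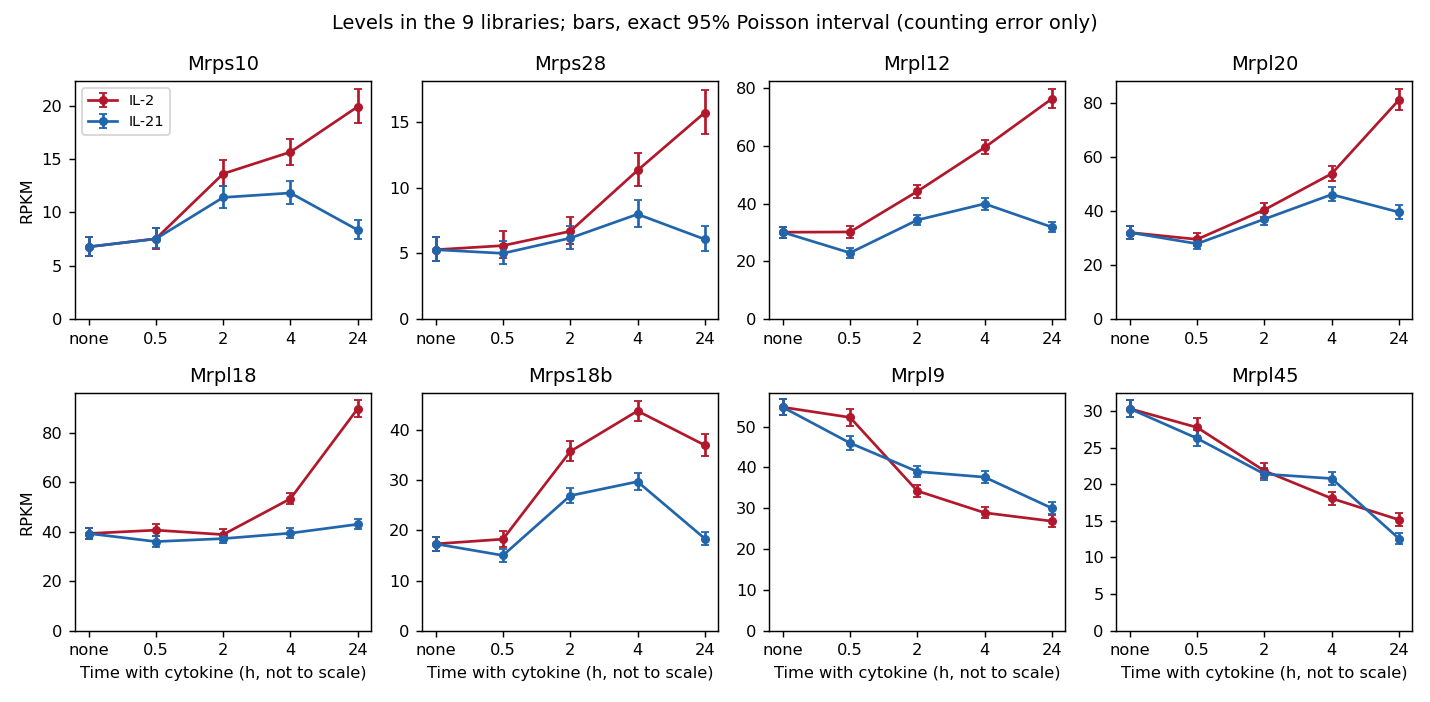
RPKM of 8 genes in the library without cytokine (none) and after 0.5, 2, 4 and 24 h of IL-2 (red) or IL-21 (blue), 1 library per point, with exact 95% Poisson intervals that cover counting error only. Mrps10, Mrps28, Mrpl12, Mrpl20 and Mrpl18 are highest after 24 h of IL-2, Mrps18b after 4 h, and Mrpl9 and Mrpl45 are lower than without cytokine at every time under both cytokines.

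Just under 2-fold after 24 h of IL-2 stood Mrpl42 (log2 difference 0.93), a mitochondria-specific protein, Mrpl28 (0.89), Mrpl3 (0.81), a protein close to the peptidyl transferase centre, and Mrpl54 (0.81). Mrpl42 was at 29.7, 33.3, 49.7 and 60.6 RPKM in the IL-2 libraries and 28.6, 28.5, 38.8 and 28.9 RPKM in the IL-21 libraries, against 31.4 RPKM without cytokine. Mrpl28 was at 20.0, 17.7, 22.0 and 35.7 RPKM in the IL-2 libraries and 16.6, 16.7, 20.8 and 17.5 RPKM in the IL-21 libraries, against 18.8 RPKM without cytokine, so that it stood out at 24 h of IL-2 alone. Mrpl3 was earlier, with 24.2 RPKM in the IL-2 library and 20.9 RPKM in the IL-21 library at 2 h, against 16.7 RPKM without cytokine. Mrpl54 was at 55.4 RPKM with IL-2 and 32.7 RPKM with IL-21 at 24 h, against 31.2 RPKM without cytokine. At a threshold of 1.5-fold, 30 genes were higher and 2 lower after 24 h of IL-2, where 22.6% of all genes were higher and 17.2% lower. The 95% counting interval lay above equal levels for 59 genes (45.2% of all genes) and below them for 7 (39.2%), namely Mrpl9, Mrpl45, Mrpl24, Mrpl48, Mrps6, Mrpl30 and Mrpl4.

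Mrpl9 and Mrpl45 were lower where most of the set was higher. Mrpl9 (NM_030116, plus strand of chromosome 3), the counterpart of bacterial L9, was at 52.3, 34.2, 28.9 and 26.8 RPKM in the IL-2 libraries and 46.0, 39.0, 37.6 and 30.0 RPKM in the IL-21 libraries, against 54.8 RPKM without cytokine. Mrpl45 (NM_025927, plus strand of chromosome 11), a mitochondria-specific protein beside the exit tunnel that helps tie the ribosome to the inner membrane, was at 27.7, 21.8, 18.1 and 15.1 RPKM in the IL-2 libraries and 26.3, 21.38, 20.8 and 12.6 RPKM in the IL-21 libraries, against 30.3 RPKM without cytokine. For both genes all 8 cytokine libraries were below the one without cytokine, which also held for Mrpl48 and Mrpl27 (7.16% of all genes). The ratios of Mrpl9 to no cytokine at 24 h were 0.490 for IL-2 (0.459 to 0.523) and 0.548 for IL-21 (0.517 to 0.581). Those of Mrpl45 were 0.500 for IL-2 (0.466 to 0.536) and 0.415 for IL-21 (0.387 to 0.445). Mrpl9 and Mrpl45 were thus lower with either cytokine than in the 1 library without cytokine. That library has no stated time, so the cytokines and the time in culture cannot be told apart here. Mrpl48, a mitochondria-specific protein, was at 23.5 RPKM with IL-2 and 19.2 RPKM with IL-21 at 24 h, against 31.7 RPKM without cytokine. Mrps6, the counterpart of bacterial S6, was at 21.6 RPKM with IL-2 and 19.2 RPKM with IL-21 at 24 h, against 27.9 RPKM without cytokine. Mrpl30, the gene with the highest mean, was at 68.6 RPKM with IL-2 and 62.3 RPKM with IL-21 at 24 h, against 87.4 RPKM without cytokine. In these 3 genes, too, both 24 h libraries were below the one without cytokine. Mrpl24 was lowest with IL-2, at 40.9 RPKM with IL-2 and 50.8 RPKM with IL-21 at 24 h, against 57.4 RPKM without cytokine. The reverse, with all 8 cytokine libraries above the one without cytokine, was seen in Mrpl51, Mrpl52, Mrps10 and Mrps27 (4.88% of all genes).

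With IL-21 the set showed small differences, highest at 4 h. Against no cytokine the median difference was -0.13, -0.05, 0.18 and -0.09 at 0.5, 2, 4 and 24 h, beside -0.05, -0.04, 0.01 and -0.004 for all genes, and it kept its sign under both other scalings at each time. At 0.5 h 64 of the 76 genes were lower by any amount (63.1% of all genes), and that library was the lowest of the 9 for 36 genes (14.9% of all genes). The number higher was 31, 56 and 29 at 2, 4 and 24 h, beside 44.8%, 51.7% and 49.6% of all genes. The median of 24 h minus 4 h was 0.15 for IL-2, with 55 genes higher at 24 h (50.2% of all genes), and -0.25 for IL-21, with 71 lower (57.4% of all genes). Upper quartile scaling left 0.05 for IL-2, with 48 genes higher, and -0.26 for IL-21, with 72 lower. The shares of all genes for this step under that scaling are not given, so these counts have no background beside them. At 2-fold or more, 0 genes were higher at any IL-21 time, beside 0.326%, 1.72%, 1.21% and 1.62% of all genes. Mrpl45 alone was 2-fold lower, at 24 h, and the shares of all genes were 0.0543%, 1.18%, 1.32% and 1.86%. The log2 differences that ranked highest at 24 h of IL-21 were 0.35 for Mrpl36, 0.34 for Mrpl52, 0.34 for Mrpl41, 0.30 for Mrpl20 and 0.27 for Mrps10. Mrpl36 was at 28.9 RPKM with IL-2 and 24.8 RPKM with IL-21 at 24 h, against 19.2 RPKM without cytokine. Mrpl41, a mitochondria-specific protein of the large subunit, was at 8.99 RPKM with IL-2 and 6.21 RPKM with IL-21 at 24 h, against 4.69 RPKM without cytokine. For both genes the IL-2 library was the higher one.

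Libraries of the same time share the time in culture, so IL-2 was also set against IL-21 directly. The median difference, IL-2 minus IL-21, was 0.18, 0.09, 0.11 and 0.54 at 0.5, 2, 4 and 24 h, against 0.08, 0.02, -0.002 and 0.07 for all genes. With upper quartile scaling the value at 4 h was 0.05, and with TMM scaling that at 0.5 h was 0.11. The number of the 76 genes higher with IL-2 was 71, 63, 53 and 72 at these times, beside 64.2%, 54.2%, 49.9% and 54% of all genes. At 24 h the counting interval lay above equal levels for 68 genes (45.9% of all genes) and below them for Mrpl24, Mrpl52 and Mrpl9 (37% of all genes). Upper quartile scaling moved the median of all genes at 24 h by -0.14 and left 66 genes higher (45.3% of all genes), with a median of 0.37. At 2-fold or more, 7 genes were higher with IL-2 at 24 h and 0 lower, beside 9.85% and 6.06% of all genes, again no more than the background. These were Mrps28 (ratio 2.59, 2.15 to 3.13), Mrpl12 (ratio 2.395, 2.23 to 2.57), Mrps10 (ratio 2.38, 2.08 to 2.74), Mrpl18, Mrpl42, Mrpl13 and Mrpl20. Mrps28, Mrpl12 and Mrps10 were the 3 that reached 2-fold under TMM scaling (8.35% of all genes) and under upper quartile scaling (7.27%). At 1.5-fold 28 genes were higher and 0 lower at 24 h, beside 22.1% and 15.8% of all genes. At 0.5 and 2 h, 0 genes reached 2-fold in either direction, beside 0.217% and 0.643% of all genes higher and 0.29% and 0.688% lower. IL-2 was above IL-21 at all 4 times for 45 genes (19.4% of all genes), and the reverse held for 0 (8.58%). At the other end of the list stood Mrpl24, Mrpl52, Mrpl9, Mrpl34 and Mrps16. Mrpl52, a mitochondria-specific protein, was at 77.9 RPKM with IL-2 and 87.3 RPKM with IL-21 at 24 h, against 68.6 RPKM without cytokine. Mrpl34 was at 28.4 RPKM with IL-2 and 28.5 RPKM with IL-21 at 24 h, against 28.0 RPKM without cytokine. Mrps16 was at 58.7 RPKM with IL-2 and 57.9 RPKM with IL-21 at 24 h, against 55.8 RPKM without cytokine. Mrpl34 and Mrps16 were thus at nearly one level in all 3 libraries, while Mrpl52 was highest with IL-21.

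**Figure D3:**
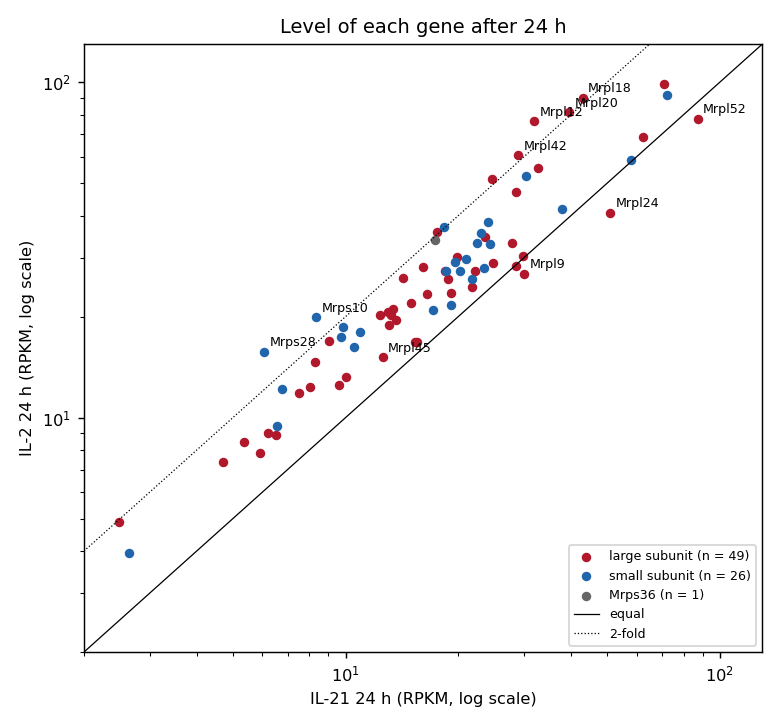
RPKM of each of the 76 genes after 24 h of IL-2 (y axis, log scale) and 24 h of IL-21 (x axis, log scale), coloured by ribosomal subunit, 1 library per axis. Most points lie between the line of equal levels (solid) and the 2-fold line (dotted), 72 of them above equal, with Mrps28, Mrpl12 and Mrps10 farthest above and Mrpl24, Mrpl52 and Mrpl9 below.

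The 8 cytokine libraries also allowed tests in which the spread between times stands in for replicates, with edgeR's quasi-likelihood test over 10452 genes and Benjamini-Hochberg adjustment; all 76 genes entered. In a model with a slope on log2 time for each cytokine, 8 of the 76 genes changed with time in IL-2 at an adjusted p below 0.05, 6 rising and 2 falling, beside 13.3% of all genes (6.75% rising, 6.57% falling), so the share was not above the background. Per unit of log2 hours, Mrpl20 rose by 0.26 (SE 0.05, adjusted p = 0.0214), Mrps28 by 0.28 (SE 0.07, adjusted p = 0.0365), Mrpl12 by 0.24 (SE 0.06, adjusted p = 0.042) and Mrpl18 by 0.21 (SE 0.04, adjusted p = 0.0277). Mrpl42 rose by 0.19 (SE 0.05, adjusted p = 0.04998) and Mrpl13 by 0.16 (SE 0.04, adjusted p = 0.0487); of 10 other settings, Mrpl42 passed in 1 and Mrpl13 in 2, with adjusted p up to 0.163 and 0.329. Mrpl9 fell by 0.17 (SE 0.04, adjusted p = 0.0383) and Mrpl45 fell by 0.16 (SE 0.04, adjusted p = 0.0391). Mrpl13, the counterpart of bacterial L13, was at 28.3, 28.8, 35.4 and 51.4 RPKM in the IL-2 libraries and 26.5, 28.1, 30.9 and 24.5 RPKM in the IL-21 libraries, against 29.9 RPKM without cytokine. Mrps10 had a slope of 0.24 (SE 0.08) and missed the threshold (adjusted p = 0.0751), as did Mrps18b with 0.17 (SE 0.11, adjusted p = 0.321). Estimates lay above 0 for 67 genes (51.4% of all genes). DESeq2 called 14 of the 76, beside 24.9% of all genes. The edgeR count depended on every time point: without the 2, 4 or 24 h libraries 0 genes passed, without 0.5 h 3 did, and with time in hours 1 did. The shares of all genes under these settings are not given, so the drop cannot be read as particular to the 76 genes.

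For a slope in IL-21, 0 of the 76 genes and 0% of all genes passed with edgeR. At an unadjusted p below 0.05 Mrpl45, Mrpl9 and Mrpl48 had a negative slope (4.2% of all genes), and DESeq2 called 1 of the 76 (1.69% of all genes). The slope of Mrpl45 was -0.16 in IL-2 and -0.19 in IL-21, and that of Mrpl9 was -0.17 in IL-2 and -0.11 in IL-21. For the difference between the slopes of IL-2 and IL-21, 0 of the 76 genes and 0% of all genes passed with edgeR, and DESeq2 called 0 of the 76 (6.92% of all genes). At an unadjusted p below 0.05, 7 were steeper in IL-2 (9.21% of all genes), namely Mrpl18, Mrpl20, Mrps36, Mrpl13, Mrpl42, Mrpl47 and Mrpl1. Averaged over the 4 times, IL-2 minus IL-21 passed for 0 of the 76 genes and for 0.0383% of all genes with edgeR, and DESeq2 again called 0 of the 76 (4.31% of all genes). At an unadjusted p below 0.05, 6 of the 76 were higher with IL-2 (8.05% of all genes), namely Mrpl12 (0.61, SE 0.18), Mrps18b (0.52, SE 0.15), Mrps2, Mrps34, Mrps26 and Mrpl55. No single gene of the set was therefore past the adjusted threshold for a difference between the cytokines, in tests with 3 or 4 residual degrees of freedom.

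Medians of the ribosome's parts lay close together. At 24 h of IL-2 the median difference from no cytokine was 0.44 for the large subunit and 0.48 for the small subunit, and 0.44 for proteins with a bacterial counterpart and 0.46 for those without; none of these pairs was tested. At 24 h of IL-21 the medians of the large and small subunit were -0.09 and -0.03. The stalk and its base differed among themselves: Mrpl12 had a difference of 1.31 after 24 h of IL-2, above its partners. Mrpl11 was at 7.38 RPKM with IL-2 and 4.70 RPKM with IL-21 at 24 h, against 5.18 RPKM without cytokine. Mrpl10, which anchors the stalk, was at 33.1 RPKM with IL-2 and 27.9 RPKM with IL-21 at 24 h, against 28.9 RPKM without cytokine. The 5 proteins listed here for the polypeptide exit tunnel, a list that need not be complete, pointed both ways. Mrpl45 and Mrpl24 were lower than without cytokine, as given above. Mrpl47 was at 14.6 RPKM with IL-2 and 8.29 RPKM with IL-21 at 24 h, against 8.01 RPKM without cytokine. Mrpl23 was at 47.2 RPKM with IL-2 and 28.5 RPKM with IL-21 at 24 h, against 33.1 RPKM without cytokine. Mrpl22 was at 16.8 RPKM with IL-2 and 15.5 RPKM with IL-21 at 24 h, against 15.4 RPKM without cytokine. The median of these 5 at 24 h of IL-2 was 0.11 and turned to -0.08 under upper quartile scaling.

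The genes at the ends of the range of levels mostly shared the pattern of the set at 24 h, with IL-2 above the other 2 libraries. Mrps25, a mitochondria-specific protein of the small subunit, was at 3.94 RPKM with IL-2 and 2.64 RPKM with IL-21 at 24 h, against 2.22 RPKM without cytokine. Mrpl17 was at 4.90 RPKM with IL-2 and 2.49 RPKM with IL-21 at 24 h, against 2.77 RPKM without cytokine, and Mrpl35 at 7.86 RPKM with IL-2 and 5.90 RPKM with IL-21 at 24 h, against 6.34 RPKM without cytokine. Among abundant transcripts, Mrpl33 was at 98.5 RPKM with IL-2 and 70.9 RPKM with IL-21 at 24 h, against 72.6 RPKM without cytokine, and Mrps21 at 91.8 RPKM with IL-2 and 72.2 RPKM with IL-21 at 24 h, against 73.0 RPKM without cytokine. Mrpl30 and Mrpl52 were exceptions, since Mrpl30 was highest without cytokine and Mrpl52 with IL-21. Mrps16 was nearly level, at 58.7 RPKM with IL-2 and 57.9 RPKM with IL-21 at 24 h, against 55.8 RPKM without cytokine. Mrps36, the gene outside the ribosome, was at 33.8 RPKM with IL-2 and 17.4 RPKM with IL-21 at 24 h, against 19.9 RPKM without cytokine. Its ratio of 24 h of IL-2 to no cytokine was 1.70 (1.51 to 1.91).

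Proteins of the mitochondrial ribosome that carry other names are given beside the set. Of 7 measured, all were higher after 24 h of IL-2 than without cytokine (52.5% of all genes), with a median difference of 0.21. Under upper quartile scaling that median was 0.02, and how many of the 7 stayed higher is not given. Chchd1 was at 61.9 RPKM with IL-2 and 32.0 RPKM with IL-21 at 24 h, against 27.6 RPKM without cytokine. It was the 1 of the 7 that rose with time in IL-2 (edgeR, 0.22 per unit of log2 hours, adjusted p = 0.0219), where 6.75% of all genes rose. Ptcd3, which binds RNA in the small subunit, was at 26.1 RPKM with IL-2 and 14.2 RPKM with IL-21 at 24 h, against 13.5 RPKM without cytokine. Ict1, a peptide release factor built into the large subunit, was at 32.6 RPKM with IL-2 and 32.2 RPKM with IL-21 at 24 h, against 30.8 RPKM without cytokine, so that the list ran from no visible difference to 2-fold.

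Other mitochondrial systems and the cytosolic ribosome are described by medians and counts, with no test of the difference between lists. Genes of protein import and folding in mitochondria had a median difference of 0.93 at 24 h of IL-2, and 26 of 26 were higher than without cytokine (52.5% of all genes), 11 of them at or over 2-fold (9.58%). At 24 h of IL-21 their median was 0.02, and -0.01 with upper quartile scaling. Timm8a1, an intermembrane space chaperone, was at 41.2 RPKM with IL-2 and 12.8 RPKM with IL-21 at 24 h, against 7.25 RPKM without cytokine. Hspd1, the matrix chaperonin, was at 195 RPKM with IL-2 and 64.2 RPKM with IL-21 at 24 h, against 53.0 RPKM without cytokine, and rose with time in IL-2 (edgeR, 0.35 per unit of log2 hours, adjusted p = 0.0497). Timm44, at 26.0 RPKM with IL-2 and 25.0 RPKM with IL-21 at 24 h, against 25.1 RPKM without cytokine, had the smallest difference of that list. The 78 measured nuclear genes of respiratory chain and ATP synthase subunits had a median of 0.50 at 24 h of IL-2 and -0.07 at 24 h of IL-21, and 13 rose and 2 fell with time in IL-2, where 6.75% of all genes rose and 6.57% fell. At 4 h of IL-2 their median was -0.0004, where that of the 76 genes was 0.27. Cytosolic ribosomal protein genes lay on the other side, with medians of -0.59 at 24 h of IL-2 and -0.41 at 24 h of IL-21, and 0 rose and 45 of 81 fell with time in IL-2, beside the same shares of all genes.

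**Figure D4:**
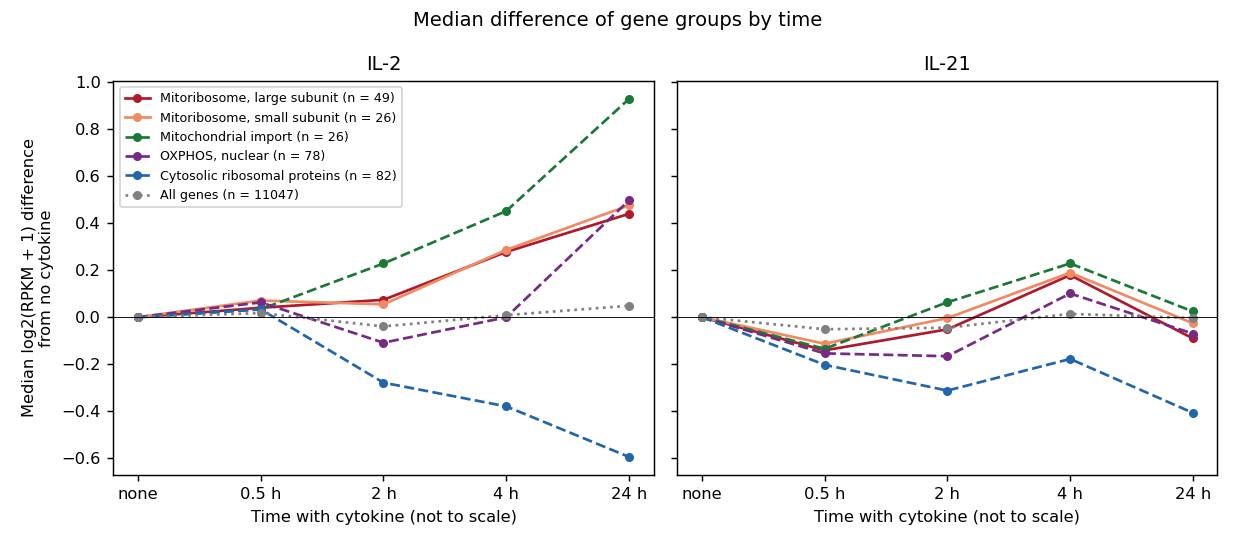
Median difference from no cytokine, on the log2(RPKM + 1) scale, of gene lists without cytokine (none, 0 by construction) and after 0.5, 2, 4 and 24 h of IL-2 (left) or IL-21 (right), 1 library per time. Both subunits of the mitochondrial ribosome reach 0.44 and 0.48 after 24 h of IL-2, between protein import (0.93) and all genes (0.05), while cytosolic ribosomal proteins are at -0.59; after 24 h of IL-21 both subunits are near 0. Upper quartile scaling lowers the medians after 24 h of IL-2 without turning the sign of these lists, apart from all genes (-0.12).

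The machinery that works with the mitochondrial ribosome held genes on both sides. At 24 h of IL-2 the median was 0.41 for 19 mitochondrial aminoacyl-tRNA synthetases, 0.41 for 12 genes of mitochondrial DNA and RNA maintenance, 0.18 for 24 ribosome assembly factors and 0.17 for 13 translation factors; the last 2 medians turned to -0.01 under upper quartile scaling. At 2 and 4 h of IL-2 the medians were 0.29 and 0.44 for the synthetases, 0.50 and 0.51 for DNA and RNA maintenance, 0.19 and 0.30 for assembly factors and 0.03 and 0.21 for translation factors, beside 0.06 and 0.27 for the 76 genes. None of these 4 lists had a member that rose with time in IL-2 (6.75% of all genes). Of the translation factors 1, the initiation factor Mtif3, fell (edgeR, slope -0.19, adjusted p = 0.0291), where 6.57% of all genes fell. Mtif3 was at 2.12 RPKM with IL-2 and 3.45 RPKM with IL-21 at 24 h, against 4.57 RPKM without cytokine. The elongation factor Gfm1 was at 20.7 RPKM with IL-2 and 11.8 RPKM with IL-21 at 24 h, against 10.6 RPKM without cytokine. Tsfm, which recharges another elongation factor, was at 15.7 RPKM with IL-2 and 6.60 RPKM with IL-21 at 24 h, against 8.78 RPKM without cytokine. Mtif3 was thus lowest, and the 2 elongation factors highest, with IL-2. Of the synthetases, Mars2, for methionine, was at 6.08 RPKM with IL-2 and 4.17 RPKM with IL-21 at 24 h, against 2.74 RPKM without cytokine, and Yars2, for tyrosine, at 11.8 RPKM with IL-2 and 6.24 RPKM with IL-21 at 24 h, against 5.76 RPKM without cytokine. Lars2, for leucine, was at 158 RPKM with IL-2 and 268 RPKM with IL-21 at 24 h, against 371 RPKM without cytokine, lower with both cytokines. Of the assembly factors, Rnmtl1, an rRNA methyltransferase, was at 5.61 RPKM with IL-2 and 2.19 RPKM with IL-21 at 24 h, against 2.34 RPKM without cytokine. The GTPase Noa1 was at 15.5 RPKM with IL-2 and 8.79 RPKM with IL-21 at 24 h, against 7.60 RPKM without cytokine. Nsun4, another rRNA methyltransferase, was lowest with IL-2, at 2.03 RPKM with IL-2 and 3.22 RPKM with IL-21 at 24 h, against 4.04 RPKM without cytokine. Lrpprc, which stabilises mitochondrial mRNA, was at 23.0 RPKM with IL-2 and 10.7 RPKM with IL-21 at 24 h, against 9.72 RPKM without cytokine. The RNA-degrading enzyme Pnpt1 was at 16.4 RPKM with IL-2 and 11.4 RPKM with IL-21 at 24 h, against 7.69 RPKM without cytokine. Polg2, a subunit of the mitochondrial DNA polymerase, was at 3.72 RPKM with IL-2 and 3.91 RPKM with IL-21 at 24 h, against 6.69 RPKM without cytokine, lower with both cytokines.

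Known regulators of nuclear genes for mitochondria were measured as transcripts, and 0 of the 9 tested changed with time in IL-2 by edgeR. Among all genes 13.3% did, so a count of 0 in so short a list is not a result about these genes. The test fits a slope on log2 time and need not register a level that peaks and then falls. Pprc1, a coactivator of such genes, was at 5.70, 28.2, 31.5 and 20.9 RPKM in the IL-2 libraries and 4.79, 20.6, 16.2 and 9.41 RPKM in the IL-21 libraries, against 5.28 RPKM without cytokine. Myc, which drives growth and ribosome synthesis, was at 269, 107, 107 and 93.6 RPKM in the IL-2 libraries and 139, 63.3, 35.8 and 33.4 RPKM in the IL-21 libraries, against 65.1 RPKM without cytokine. Both were above their level without cytokine in every IL-2 library, with Myc highest at 0.5 h and Pprc1 at 4 h, and Myc was below it from 2 h of IL-21 on. Nrf1, a factor for respiratory genes, was at 16.9 RPKM with IL-2 and 9.59 RPKM with IL-21 at 24 h, against 10.5 RPKM without cytokine. Tfam, which packages and transcribes mitochondrial DNA, was at 16.5 RPKM with IL-2 and 10.4 RPKM with IL-21 at 24 h, against 10.9 RPKM without cytokine. Both were higher with IL-2 than in the other 2 libraries. Yy1 was at 47.3 RPKM with IL-2 and 41.7 RPKM with IL-21 at 24 h, against 33.9 RPKM without cytokine. Gabpa, the DNA-binding subunit of GABP, was at 16.2 RPKM with IL-2 and 14.8 RPKM with IL-21 at 24 h, against 11.7 RPKM without cytokine, and its partner Gabpb1 at 18.8 RPKM with IL-2 and 13.5 RPKM with IL-21 at 24 h, against 15.8 RPKM without cytokine. The nuclear receptor Esrra was at 7.93 RPKM with IL-2 and 8.57 RPKM with IL-21 at 24 h, against 8.33 RPKM without cytokine. The coactivator Ppargc1b was at 1.58 RPKM with IL-2 and 1.00 RPKM with IL-21 at 24 h, against 1.04 RPKM without cytokine. Ppargc1a, at 0.010 RPKM with IL-2 and 0.029 RPKM with IL-21 at 24 h, against 0.014 RPKM without cytokine, was close to no signal.

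Promoters of genes at the 2 ends of the set are shown so that their sequences can be compared, since most of the set was higher with IL-2 while Mrpl9 and Mrpl45 were lower. They run from 250 bases before to 50 bases after the annotated start, 5′ to 3′ on the gene's strand, from RefSeq (GRCm38.p6, a different build from the mm9 of the files). Capitals mark matches, on either strand, to an E-box (CACGTG, bound by Myc and related factors), an NRF1 core (GCGCATG), an ETS core (CCGGAAG, as in sites of GABP) or a YY1 core (ATGGCGG); the NRF1 and YY1 cores can overlap by the letters ATG.
Mrps10 (chr17:47368947-47369246, plus strand): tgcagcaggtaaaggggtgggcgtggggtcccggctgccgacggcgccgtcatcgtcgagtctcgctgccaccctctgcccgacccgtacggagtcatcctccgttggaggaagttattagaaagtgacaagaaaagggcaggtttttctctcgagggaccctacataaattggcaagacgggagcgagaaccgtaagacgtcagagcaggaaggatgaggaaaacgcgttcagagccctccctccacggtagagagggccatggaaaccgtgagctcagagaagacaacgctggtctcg
Mrpl12 (chr11:120484387-120484686, plus strand): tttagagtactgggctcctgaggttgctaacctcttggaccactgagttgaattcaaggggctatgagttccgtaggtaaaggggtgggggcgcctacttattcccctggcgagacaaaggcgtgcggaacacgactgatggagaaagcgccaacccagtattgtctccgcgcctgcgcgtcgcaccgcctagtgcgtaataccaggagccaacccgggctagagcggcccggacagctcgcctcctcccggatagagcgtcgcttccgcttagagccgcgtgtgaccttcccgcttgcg
Mrpl20 (chr4:155802628-155802927, plus strand): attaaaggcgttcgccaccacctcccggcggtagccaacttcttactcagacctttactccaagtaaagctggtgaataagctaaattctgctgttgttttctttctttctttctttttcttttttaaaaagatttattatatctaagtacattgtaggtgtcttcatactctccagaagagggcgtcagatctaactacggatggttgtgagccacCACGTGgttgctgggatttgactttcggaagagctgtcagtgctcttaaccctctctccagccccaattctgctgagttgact
Mrps18b (chr17:35916391-35916690, minus strand): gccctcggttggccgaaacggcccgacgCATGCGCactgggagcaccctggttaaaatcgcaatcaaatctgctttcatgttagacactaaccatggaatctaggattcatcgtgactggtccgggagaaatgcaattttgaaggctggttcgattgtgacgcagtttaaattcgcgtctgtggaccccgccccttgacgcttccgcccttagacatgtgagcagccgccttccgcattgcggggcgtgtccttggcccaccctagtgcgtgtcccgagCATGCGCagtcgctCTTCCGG
Mrpl9 (chr3:94443086-94443385, plus strand): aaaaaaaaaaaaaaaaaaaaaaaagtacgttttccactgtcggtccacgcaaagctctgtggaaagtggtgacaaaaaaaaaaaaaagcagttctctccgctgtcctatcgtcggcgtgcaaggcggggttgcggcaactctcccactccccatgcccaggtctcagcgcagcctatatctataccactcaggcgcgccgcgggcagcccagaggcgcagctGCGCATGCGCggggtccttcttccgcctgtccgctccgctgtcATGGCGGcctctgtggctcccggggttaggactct
Mrpl45 (chr11:97315466-97315765, plus strand): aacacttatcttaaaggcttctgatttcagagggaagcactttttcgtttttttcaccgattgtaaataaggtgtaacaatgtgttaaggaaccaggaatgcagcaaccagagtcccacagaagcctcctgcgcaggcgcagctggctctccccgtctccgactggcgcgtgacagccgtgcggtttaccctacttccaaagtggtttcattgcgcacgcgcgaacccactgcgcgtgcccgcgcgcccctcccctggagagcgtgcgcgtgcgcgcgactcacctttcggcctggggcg

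In these windows Mrps10, Mrpl12 and Mrpl45 held none of the 4 motifs, Mrpl20 held the E-box, Mrps18b the NRF1 core at 2 places and the ETS core, and Mrpl9 the NRF1 core and the YY1 core. A promoter was found for 67 of the 76 genes, and 9, among them Mrps28 and Mrpl13, are named only. Of the 67, 23 held the ETS core (34.3%, against 20.1% of 7910 expressed genes), 13 the YY1 core (19.4% against 9.08%), 8 the NRF1 core (11.9% against 7.8%), 5 the E-box (7.46% against 10.7%) and 33 a GC box, GGGCGG (49.3% against 65.6%). The E-box genes were Mrpl2, Mrpl20, Mrpl36, Mrpl37 and Mrps18c. The median difference at 24 h of IL-2 was 0.43 for the 23 genes with the ETS core and 0.44 for the 44 without, 0.33 and 0.44 for those with and without the YY1 core, and 0.15 and 0.44 for the NRF1 core. For the E-box it was 0.56 in the 5 genes with it and 0.43 without, and for the GC box 0.50 with it and 0.41 without; none of these differences was tested. A match says only that these letters are present, and binding was not measured here.

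Counting can mix some of these genes with their neighbours. In the RefSeq annotation, 19 of the 76 genes overlap another protein-coding gene when whole spans, introns included, are compared on either strand. Exons were not compared, so an overlap need not hold counted reads. The share of all genes with such an overlap is not given. Whether the authors counted by strand is not stated, so reads in any shared exons cannot be assigned. Mrpl18 overlaps Tcp1, a subunit of the cytosolic chaperonin, which was at 190 RPKM with IL-2 and 90.4 RPKM with IL-21 at 24 h, against 111 RPKM without cytokine. Mrpl24 overlaps Rrnad1, Mrpl48 overlaps Rab6a, Mrps6 overlaps Slc5a3 and Mrps25 overlaps Nr2c2. Mrps10, Mrps28, Mrpl12, Mrpl20, Mrpl9 and Mrpl45 had no such overlap. Divergent starts could be sought only for the 67 genes with an annotated promoter. In 22 of the 67 the start lay within 1000 bases of a protein-coding gene transcribed the other way. Of these, 2, Mrpl46 and Mrps11, faced each other at 42 bases. The share of all genes with such a neighbour is not given. Several annotated transcripts were listed for 7 genes, and for Mrps10 the log2 difference after 24 h of IL-2 was 1.43, 1.43 and 1.40 in its 3 transcripts.

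The libraries held the transcripts of CD4+ T cells, and markers of other cells shifted between them. The 6 CD4 T cell markers (Cd4, Cd3d, Cd3e, Cd3g, Cd5 and Trat1) summed to 739 RPKM with IL-2 and 1227 RPKM with IL-21 at 24 h, against 1273 RPKM without cytokine. Of the 6, Trat1 alone was higher with IL-2 than without cytokine, and with IL-21 3 were higher and 3 lower. The 9 B cell markers summed to 84.9 RPKM with IL-2 and 45.9 RPKM with IL-21 at 24 h, against 212 RPKM without cytokine, and each of the 9 was lower with either cytokine. The CD8 markers Cd8a and Cd8b1 summed to 6.27 RPKM with IL-2 and 11.3 RPKM with IL-21, against 9.73 RPKM without cytokine; Cd8a was higher and Cd8b1 lower with IL-2, and both were higher with IL-21. The 8 myeloid markers summed to 5.99 RPKM with IL-2 and 15.5 RPKM with IL-21, against 10.9 RPKM without cytokine, and of the 6 that reached 1 RPKM 1 was higher and 5 lower with IL-2, and 4 higher and 2 lower with IL-21. The 5 erythroid markers summed to 0.610 RPKM with IL-2 and 0.436 RPKM with IL-21, against 3.23 RPKM without cytokine, with Alas2 listed at 0 in all 3. The part of these shifts in the differences of the mitochondrial ribosomal protein genes was not tested.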

How the data were processed

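RNA of 9 libraries was analysed; 19 chromatin libraries were left out. Total RNA went into a stranded library kit, per the labels' protocols. Per the submitters' processing notes the build was mm9 and the tools included Bowtie 0.12.9, TopHat2 2.0.11, SAMtools and HOMER; which annotation and counting program were used is not stated. The deposited files give, per their headers, whole read counts per RefSeq transcript and RPKM values made by the authors from those counts, the transcript length and a library total (29.5 to 44.3 M reads). A read in an exon that several transcripts share counts towards each of them.

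Each symbol was represented by the transcript with the highest mean RPKM; 752 symbols whose transcript was under 200 bases were left out of all-gene values. Pairs of libraries, with 1 per condition, have no p-value: differences used log2(RPKM + 1) over 11047 genes, thresholds of 2-fold (1.5-fold as alternative) and exact 95% conditional binomial intervals, which cover counting error only. edgeR 4.0.16 (R 4.3.3, TMM scaling, mean RPKM of at least 1, 10452 genes) was run on the deposited counts of the 8 cytokine libraries, either with a term for each time (3 residual degrees of freedom) or with a slope on log2 time per cytokine (4); the scripts were tested on simulated data. No label ties a library to its own mouse or culture; p-values reflect the spread among these libraries alone, which may be technical. Alternatives were pseudocount 0.1, TMM, RLE, upper quartile and authors' totals for scaling, filters, longest transcripts, limma 3.58.1, DESeq2 1.42.0, leaving out each time and time in hours.

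The genes and lists were chosen with earlier results of these data known. Named genes followed fixed ranks: the 10 largest and 6 smallest differences after 24 h of IL-2, the 5 largest and 5 smallest between cytokines, the 5 largest and 3 smallest after 24 h of IL-21, the 5 highest and 5 lowest means, the Mrps18, stalk and exit tunnel groups, any gene at or over 2-fold lower, all listed regulators, and 2 largest and 1 smallest of each companion list. Genes named because they passed a test, met a pattern, held a motif or had a neighbour were chosen after their values were seen.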

Additional observations from a re-analysis of the deposited data

Results flagged for a closer look

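Mrpl43 was the only one of the 76 genes with all 4 IL-2 libraries above, and all 4 IL-21 libraries below, the library without cytokine, a pattern of 53 of 11047 genes (0.48%). It was at 24.9, 25.1, 25.4 and 27.4 RPKM with IL-2 and 21.1, 22.6, 23.5 and 22.2 RPKM with IL-21, against 24.2 RPKM without cytokine. Its counting interval against no cytokine included equal levels at 0.5 h of IL-2 and at 4 h of IL-21. Upper quartile factors were 1.03 at 4 h and 1.12 at 24 h of IL-2, and 0.970 without cytokine. Under them both of these IL-2 values fell below the one without cytokine, so the pattern did not hold under that scaling. The mean log2 difference, IL-2 minus IL-21, was 0.193 over the 4 times. The edgeR test over the 4 times did not pass (0.16, SE 0.11, adjusted p = 0.477). The span of its gene overlaps that of Peo1 (Twnk), which encodes the mitochondrial DNA helicase. Peo1 was at 5.52 RPKM with IL-2 and 4.12 RPKM with IL-21 at 24 h, against 2.95 RPKM without cytokine. Any part of this overlap in the result was not tested.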

How the results depend on the processing

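None of the counts or medians of the whole set of 76 genes, and none of the slopes past the threshold, changed direction under the alternatives run. Under upper quartile scaling the median of the 5 exit tunnel genes after 24 h of IL-2 did turn below 0. So did the small differences of Mrpl43 at 4 and 24 h of IL-2. At 1.5-fold the counts against no cytokine after 2, 4 and 24 h of IL-2 were 5 (3 higher, 2 lower), 19 (17 higher, 2 lower) and 32 (30 higher, 2 lower), where 9.22%, 14.8% and 22.6% of all genes were higher and 7.1%, 11.8% and 17.2% lower. After the same times of IL-21 they were 2, 3 (all higher, beside 6.92% and 5.59% of all genes) and 3 (all lower, beside 7.57%), and between the cytokines at 24 h 28, all higher (22.1%). TMM and upper quartile scaling left 0 genes at 2-fold after 2 h of IL-2 and 3 between the cytokines at 24 h. Upper quartile scaling lowered the median difference after 24 h of IL-2 to 0.25, and that between the cytokines at 24 h to 0.37; it also turned the split of all genes after 24 h of IL-2 to 6.24% higher and 9.44% lower, from 9.58% and 6.64%. The count of genes with a slope in IL-2 was 8 (13.3% of all genes), and 14 with DESeq2 (24.9%). It was 5 with upper quartile scaling, 5 without a filter on low values and 1 with time in hours. With a time left out it was 0 to 3, and 0 were left without 2, 4 or 24 h. Under the alternatives other than DESeq2 the share of all genes is not given. The lower counts therefore cannot be read as particular to the set. For IL-21, DESeq2 called 1. Among 10 alternatives Mrpl20 and Mrpl18 passed in 7 (adjusted p 7.7e-05 to 0.0801 for Mrpl20), Mrpl9 and Mrps28 in 6, Mrpl12 and Mrpl45 in 5, Mrpl13 in 2 and Mrpl42 in 1. The cause of these shifts was not tested. Of the counts and medians of the set recomputed, 153 stayed within the counting error or within 1.5 times and 22 did not. For single named genes 728 values kept their call or stayed within counting error, 54 moved beyond it with no change of sign in a called value, 41 lost a call and 6 gained one. The test of IL-2 against IL-21 over 4 times matches the cytokines by time. By replicate number, no paired analysis was possible because the RNA libraries carry none. Counting error limits the small differences: the interval included equal levels for 62 of the 76 genes at 0.5 h of IL-2 and 38 at 2 h of IL-21 against no cytokine. At 0.5 h of IL-2 it lay above equal levels for 10 (19.5% of all genes) and below for 4 (14.5%). At 2 h of IL-21 it lay above for 17 (31.8% of all genes) and below for 21 (40%). No condition has a replicate library.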
